A study of Arabidopsis thaliana with 14 samples.

Results

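The torpedo embryo is the stage at which the cotyledons, the seed leaves, and the embryonic root lengthen and the embryo turns green. The genes described here are the 100 of 25414 named genes whose RNA stood out most at that stage in an atlas of whole embryos of the Arabidopsis thaliana strain Col-0. RNA was sequenced at the zygote, octant, globular, heart, torpedo, bent and mature stages, each by 2 libraries that the labels call biological replicates. All stages share the strain and carry no transgene or treatment in the labels. Members were chosen by their torpedo values. A member had a mean of 200 or more over the 2 torpedo libraries and lay in both of them above all 12 other libraries. Of 2034 genes that met these conditions, the 100 with the highest ratio of the torpedo mean to the highest other stage mean plus 4 were taken, and 3 genes were left out beforehand. The torpedo peak itself is therefore described without a test. The values are normalised read counts, scaled so that every library totals 20000000, and the 2 values of a stage are given as replicate 1 and replicate 2.

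Chloroplasts of the embryo arise from small colourless plastids that divide, import proteins encoded in the nucleus and build thylakoid membranes with chlorophyll. Many thylakoid proteins are nuclear products that signal recognition particles and twin-arginine (Tat) translocases deliver, while plastid ribosomes translate the genes that the plastid has kept. Green oilseed embryos use this photosynthetic machinery while they fill with oil and protein, and they lose their green colour as they ripen.

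Torpedo replicate 1 held 6097762 reads and torpedo replicate 2 held 30803336 reads, the range of all libraries being 6078186 to 30803336. A member had 49 to 14739 reads in torpedo replicate 1 and 242 to 51338 in torpedo replicate 2, and replicate 1 gave the higher value for 53 of the 100. Embryo regulators were present at torpedo, with LEC1 at 1712 and 891, FUS3 at 1732 and 2532 and ABI3 at 3880.1 and 4881. Of 18 endosperm markers with values, FIS2 (3.28 and 0), FWA (0 and 1.30) and PHE1 (0 and 0) were at or near 0 at torpedo. Others on the list were not, with MYB118 at 55.8 and 30.5 and AGL62 at 22.96 and 20.13. The markers IKU1 (335 and 438) and ALE1 (131 and 94.8) had both torpedo libraries above all 12 others and made up most of the list's sum of 554 and 593. Of 24 seed coat markers, BAN had 19.7 and 48.7 and INO 0 and 0.649 at torpedo, ARA12 4299.9 and 3949 and scpl17 3060.1 and 2634. MUM4 (587 and 445) and BXL1 (1614 and 1319) had both torpedo libraries above all others, and the list summed to 13897 and 13636 at torpedo, with stage means of 3048 to 28602 over the 7 stages. None of the markers in either list was a member, and the part of such cells in the members' torpedo values was not tested. In whole embryos a smaller number of cells of a type and less RNA per cell cannot be told apart. Where a library kit does not mark strand, reads of overlapping genes cannot be separated, and 42 of the 100 members overlap another annotated gene, against 31.1% of all tested genes. Of members named below these include ACR11, PAM68, AT1G64510, PORB, 3xHMG-box2, AT1G66940, AT1G75090, CCB4, AT5G28750, AUR1, FER1, FD1, MORF9, CSP41A, LNG1, PnsB3, CHLI1, HCEF1, AT1G71250, AT4G04460, AT5G17630, CPSRP54, FLU, AT2G37660, AT5G22810, RPL24, EMB3136 and HCF106. In all, 14 members shared over 10% of their 50-base words with other genes, led by EMB3136 with 61.02%, CCB4 with 29.8%, PAM68 with 27.5% and AT5G22810 with 22.5%. Among the others was RBCS3B with 18.3%.

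The torpedo means of the 100 members ran from 201 to 40838, with a median of 904. The torpedo mean was 3.66 to 21.1 times the next highest stage mean, with a median of 4.97 times. The next highest stage was bent for 48 members, heart for 41, globular for 6, octant for 3, and zygote and mature for 1 each. Of the median member's RNA summed over the 7 stage means, 65.7% lay in the torpedo stage. The median level relative to torpedo was 1.71% in zygote, 4.62% in octant, 6.65% in globular, 15.7% in heart, 17.3% in bent and 1.09% in mature embryos. The bent mean was above the heart mean for 53 of the 100, and the bent libraries differed in this, with bent replicate 1 alone above the heart mean for 76 members and bent replicate 2 alone for 19. The median ratio of bent replicate 1 to replicate 2 was 2.46 for members above 0 in both, against 1.31 over all tested genes. Entries without a gene identifier took 14.6% of the total of bent replicate 1 and 26.3% of that of bent replicate 2. Their part in this difference was not tested. Ranked last, EMB3113 had a ratio of 3.65, and AT3G49950, a GRAS family transcription factor just outside the limit, had 3.64. The other genes just outside, AT5G65990, PRPL35, AT3G42725 and DiT1, had ratios of 3.62, 3.61, 3.604 and 3.599, and PRPL35 is a further plastid ribosomal protein. Without bent replicate 1, which gave the higher bent value for 90 of the 100 members against 63.8% of all tested genes, 61 of the members stayed among the first 100.

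**Figure D1:**
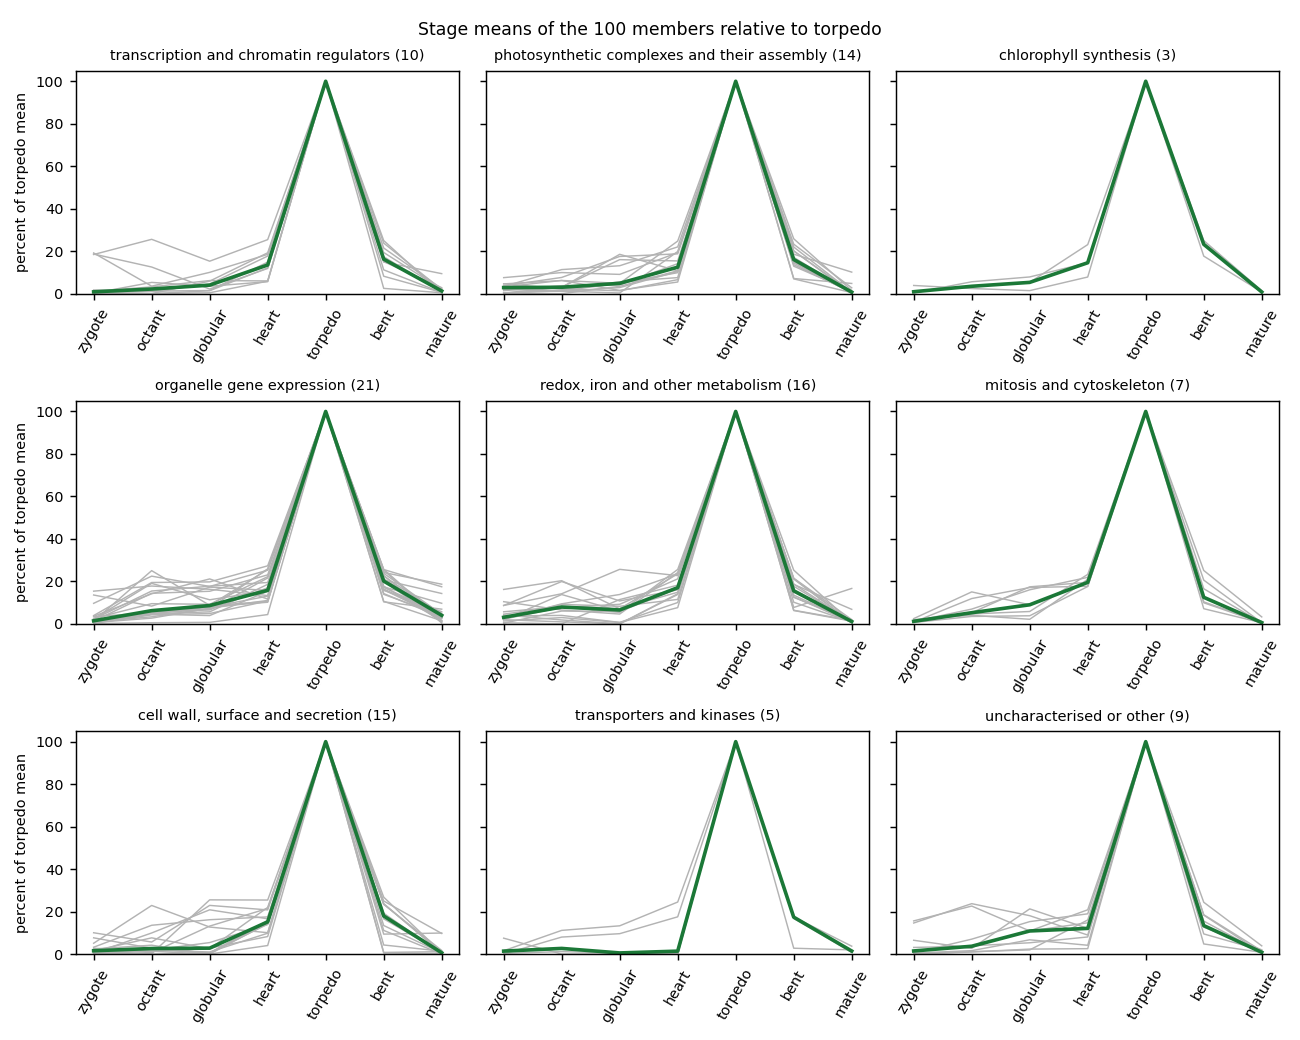
Each panel plots the stage means of the members of 1 role as percent of the member's torpedo mean, against the 7 stages. Grey lines are single members, the green line is the median of the role, and all lines reach 100 at torpedo because the genes were chosen for it.

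Genes for photosynthetic complexes and their assembly made up 14 of the 100 members, those of chlorophyll synthesis 3 and those of organelle gene expression 21. The other roles were transcription and chromatin regulators (10 members), redox, iron and other metabolism (16), mitosis and cytoskeleton (7), cell wall, surface and secretion (15), transporters and kinases (5) and uncharacterised or other genes (9). Roles were assigned by hand from the gene products after the members were known.

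GPRI1 (AT2G20570), also called GLK1, is a GARP transcription factor that switches on nuclear genes for chlorophyll synthesis and light harvesting in leaves. GPRI1 had 0 and 1.47 in zygote, 0 and 0 in octant, 0 and 11.5 in globular, 84.5 and 80.1 in heart, 1817 and 989.5 in torpedo, 259.6 and 54.7 in bent and 4.69 and 8.80 in mature libraries. It was near 0 up to the globular stage, and its torpedo mean was 8.93 times its bent mean. Upstream sequences of GPRI1 and of 4 other members, the 250 bases before each annotated start, are shown because they hold motifs known from light-regulated or auxin-regulated genes. The sequences are from the RefSeq genome build TAIR10.1, run 5′ to 3′ on the strand of the gene and carry the motif in capitals. The capitals mark an I-box (GATAAG, here on the other strand) in GPRI1, the element CCAATC that GLK proteins are known to bind (on the other strand) in CPSRP54, a G-box (CACGTG) in PnsB5, 2 I-boxes and a G-box in HCEF1, and the auxin response element TGTCTC in ty2.
GPRI1, chr2:8855052-8855301, plus strand: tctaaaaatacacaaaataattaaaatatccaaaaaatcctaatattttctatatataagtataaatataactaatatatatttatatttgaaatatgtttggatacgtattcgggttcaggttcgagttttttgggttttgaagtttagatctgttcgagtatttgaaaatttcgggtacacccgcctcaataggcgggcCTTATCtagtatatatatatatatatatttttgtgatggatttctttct
CPSRP54, chr5:1063426-1063675, minus strand: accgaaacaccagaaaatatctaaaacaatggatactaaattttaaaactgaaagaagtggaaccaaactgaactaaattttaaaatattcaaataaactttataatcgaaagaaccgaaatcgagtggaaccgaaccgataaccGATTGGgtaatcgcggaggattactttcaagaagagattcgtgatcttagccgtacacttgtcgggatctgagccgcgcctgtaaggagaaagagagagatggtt
PnsB5, chr5:17581276-17581525, minus strand: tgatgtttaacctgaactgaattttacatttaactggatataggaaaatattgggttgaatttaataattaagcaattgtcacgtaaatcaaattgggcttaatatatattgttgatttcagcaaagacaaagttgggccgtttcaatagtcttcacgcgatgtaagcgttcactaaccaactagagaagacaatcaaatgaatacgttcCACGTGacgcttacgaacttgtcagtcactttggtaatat
HCEF1, chr3:20016587-20016836, plus strand: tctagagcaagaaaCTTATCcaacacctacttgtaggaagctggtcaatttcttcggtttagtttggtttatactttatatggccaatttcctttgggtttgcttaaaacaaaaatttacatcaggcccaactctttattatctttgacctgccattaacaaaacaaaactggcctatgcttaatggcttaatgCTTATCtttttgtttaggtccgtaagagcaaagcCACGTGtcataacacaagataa
ty2, chr1:16399881-16400130, minus strand: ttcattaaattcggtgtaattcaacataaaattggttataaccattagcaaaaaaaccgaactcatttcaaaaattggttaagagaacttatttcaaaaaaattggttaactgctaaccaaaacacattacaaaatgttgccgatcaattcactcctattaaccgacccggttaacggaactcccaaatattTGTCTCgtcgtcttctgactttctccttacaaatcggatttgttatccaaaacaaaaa

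The first base of the motif lay 49 bases before the start in GPRI1, 40 in PnsB5, 236, 56 and 22 in HCEF1 and 58 in ty2. Motifs were searched on both strands in windows from 250 bases before to 50 after the start, for all 100 members and 18721 tested genes. TGTCTC was in 24% of member windows and 13.7% of all windows, GATAAG in 21% and 14.6%, and CACGTG in 12% and 8.85%. CCAATC was in 13% of member windows and 12.5% of all windows, and the shorter CCAAT, which it contains, in 60% and 53%. Both CCAATC and CCAAT were added to the search after the data were seen. The first 100 genes peaking at heart had TGTCTC in 11.1%, GATAAG in 7.07% and CACGTG in 5.05% of windows. The W-box TTGACC was in 5% of member windows and 14.5% of all windows. The first 100 genes peaking at bent had TGTCTC in 13%, GATAAG in 19% and CACGTG in 18%, the last above the members' share. CATGCA, the RY element of seed genes, was in 11% of member windows and 28% of windows of the bent genes, and ACGTGT in 14% and 34%. A match is a run of letters and not a shown binding site, and no test was made on these shares.

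**Figure D2:**
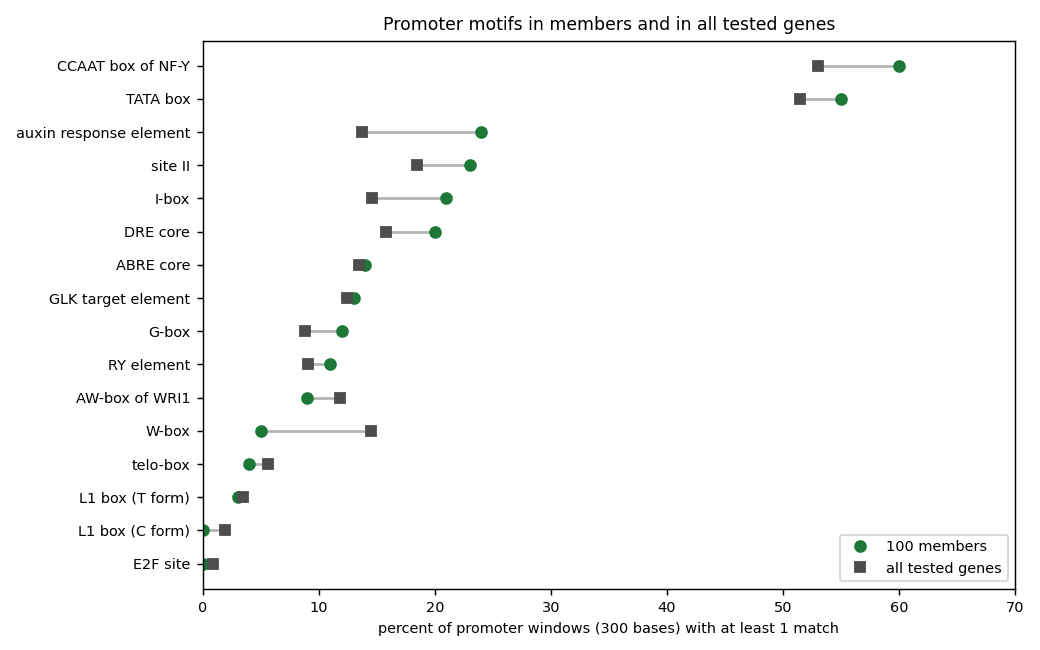
The horizontal axis is the percent of promoter windows with at least 1 match and each line of the vertical axis is a motif. Circles are the 100 members and squares all tested genes. The auxin response element (24% and 13.7%) and the W-box (5% and 14.5%) lie furthest apart of the motifs searched.

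The 3 chlorophyll members are PORB, which reduces protochlorophyllide in the light, CHLI1, a subunit of the magnesium chelatase that starts the chlorophyll branch, and FLU, which holds tetrapyrrole synthesis back in the dark. PORB (AT4G27440) had 464 and 1085 in zygote, 485 and 482 in octant, 204 and 367 in globular, 1612 and 1538 in heart, 18262 and 21998 in torpedo, 5518 and 1596 in bent and 0 and 316 in mature libraries. CHLI1 (AT4G18480) had 45.6 and 89.9 in zygote, 255 and 270.3 in octant, 474 and 329.6 in globular, 2059 and 1441 in heart, 7226 and 7936 in torpedo, 2355 and 1165 in bent and 10.95 and 100.8 in mature libraries. FLU (AT3G14110) had 6.79 and 7.37 in zygote, 78.2 and 162 in octant, 263 and 75.1 in globular, 284 and 342 in heart, 2125 and 2179.6 in torpedo, 763 and 313 in bent and 23.5 and 35.2 in mature libraries. All 3 had bent as the next highest stage, at a median of 23.2% of torpedo, and the 2 mature libraries were low. For PORB and CHLI1 mature replicate 1 was far below mature replicate 2.

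Among the photosynthetic members, PSBQA (AT4G21280) encodes a subunit of the oxygen-evolving complex of photosystem II. PSBQA had 17.5 and 31.0 in zygote, 139 and 198 in octant, 767 and 313 in globular, 767 and 689.6 in heart, 10178 and 9135 in torpedo, 2941 and 1298 in bent and 0 and 131 in mature libraries. It was lowest in zygote and mature libraries, and no library outside torpedo came near the torpedo pair. RBCS3B (AT5G38410), a small subunit of Rubisco, had 187 and 140.1 in zygote, 136 and 304 in octant, 36.2 and 73.8 in globular, 246 and 144 in heart, 3418 and 3715 in torpedo, 912 and 156 in bent and 7.82 and 50.9 in mature libraries. FD1 (AT1G10960), a ferredoxin that carries electrons from photosystem I, had 445 and 491 in zygote, 522 and 475 in octant, 3379 and 1791 in globular, 2103 and 2870.5 in heart, 22959 and 9337 in torpedo, 4516 and 1967 in bent and 57.9 and 158 in mature libraries. The torpedo replicates of FD1 differed widely and both still lay above the other 12 libraries. PAM68 (AT4G19100), needed to assemble photosystem II, had a torpedo mean of 669, 10.13 times its heart mean. AT1G49975, annotated as a subunit N of the photosystem I reaction centre, had 161 and 319 in torpedo and 31.7 and 20.02 in heart libraries. Other members of the group act in assembly rather than in the complexes themselves. CCB4 (AT1G59840), which helps to attach haem to cytochrome b6, had 400.1 and 404 at torpedo. CPSRP54 (AT5G03940), the signal recognition particle subunit that brings light-harvesting proteins to thylakoids, had 2450.1 and 2051 at torpedo and 684 and 430.4 at heart. The Tat translocase members HCF106 and AT5G28750 had torpedo means of 1627 and 920.1. HCEF1 (AT3G54050), the plastid fructose-1,6-bisphosphatase of the Calvin cycle, had 4723 and 2315 in torpedo and 1468 and 171 in bent libraries, so its bent replicates differed more than its torpedo ones.

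A further 4 members, PnsL4, PnsB3, PnsB5 and CRR7, are subunits or an assembly factor of the plastid NADH dehydrogenase-like complex, which drives cyclic electron flow around photosystem I. Their torpedo means were 201 to 414, and their mature means were 0 to 1.47. PnsB5 had 11.6 and 16.2 in zygote, 48.7 and 45.0 in octant, 75.7 and 33.1 in globular, 119 and 63.1 in heart, 564 and 264 in torpedo, 103 and 38.1 in bent and 0 and 2.93 in mature libraries. The 4 torpedo means stood 4.54 to 5.40 times above the next stage, a narrow span beside the 3.66 to 21.1 times of all members.

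Organelle gene expression was the largest role, and 7 of its 21 members encode proteins of the plastid ribosome: AT1G64510 (S6), EMB3113 (S5), EMB3136 (L10), emb1473 (L13), AT3G54210 (L17), RPL24 (L24, by its symbol) and AT1G29070 (L34). Their torpedo means, 5079 to 8889.7, corresponded to 5025 to 10854 per kilobase of transcript. Levels per kilobase, here and below, assume even coverage along the transcript, which was not checked. AT1G64510 had 63.0 and 82.6 in zygote, 333 and 133 in octant, 451 and 424 in globular, 509 and 555 in heart, 4372 and 5786 in torpedo, 1289 and 348 in bent and 116 and 149.7 in mature libraries. emb1473 (AT1G78630) had 33.9 and 60.5 in zygote, 378 and 489 in octant, 586 and 339 in globular, 1119 and 1254 in heart, 8311 and 5668 in torpedo, 1679.9 and 609.8 in bent and 221 and 287 in mature libraries. The 7 genes had octant means of 233 to 1524, above the median octant mean of all members, 51.0. Torpedo means were 7828 for EMB3113 and 7608 for AT3G54210. RPL24 and AT3G54210 kept means of 1268 and 1419 in mature embryos, the highest mature means of the 100. Among RNA-processing genes, MORF9 (AT1G11430), which takes part in plastid RNA editing, had 2758 and 2467 in torpedo and 483 and 263 in mature libraries. CSP41A (AT3G63140), a plastid RNA-binding protein, had 436 and 401 at torpedo and 127 and 41.4 at bent. The mTERF family members BSM and AT2G34620, a family that acts in organelle transcription and RNA maturation, had torpedo means of 1142 and 649. Of the pentatricopeptide repeat proteins, which bind organelle RNA, AT5G02860, MEF18 and AT3G49140 were members, with torpedo means of 202, 268 and 939. AT5G02860 had the lowest level per kilobase of all members, 59.9.

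Of the transcription and chromatin regulators besides GPRI1, AT1G44830, an AP2/ERF-type DNA-binding protein, had the highest rank. AT1G44830 had 2.91 and 0 in zygote, 0 and 0 in octant, 6.58 and 6.36 in globular, 40.8 and 74.1 in heart, 597 and 349 in torpedo, 13.5 and 9.94 in bent and 0 and 3.91 in mature libraries. HB-2 (AT4G16780), a homeodomain leucine zipper protein of the shade response, had 289 and 157 in torpedo libraries and 12.1 and 13.01 in heart libraries. HB25 (AT5G65410), a zinc finger homeodomain protein, had 3270.1 and 5968 at torpedo and 407 and 463 at mature, where HB-2 had 4.69 and 7.83. HB25 had the third highest mature mean of the 100 members. NF-YA2 (AT3G05690), a subunit of the factor that binds CCAAT, had 1053 and 1299 at torpedo, and AGL87 (AT1G22590), a MADS-box protein, had 4789 and 4037. AIL7 (AT5G65510), an AINTEGUMENTA-like factor of the shoot tip, had 702 and 832 at torpedo and 185 and 144 at bent, and BBX15 (AT1G25440), a B-box protein, had 653 and 705 at torpedo and 279.8 and 59.7 at bent. CHR38 (AT3G42670), known as CLASSY1 of RNA-directed DNA methylation, had 571 and 417 at torpedo and 72.7 and 116 in zygotes.

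FBA8 (AT3G52930), a cytosolic aldolase of glycolysis, had the highest level per kilobase at torpedo, 19999, followed by FD1 with 18909, PORB with 12267, AT1G29070 with 10854, AT5G22810 with 10410 and AT2G37660 with 10189. This order depends on the division by length, as the torpedo mean of PORB, 20130, was above that of FD1, 16148. FBA8 had 3095 and 3968 in zygote, 5361 and 6209 in octant, 10724 and 10235 in globular, 9469 and 9072 in heart, 48342 and 33333 in torpedo, 11684 and 5542 in bent and 28.2 and 406 in mature libraries. It was high in all libraries before the mature stage, and its lowest values by far were the mature ones. FER1 (AT5G01600), a plastid ferritin that stores iron, had 852 and 599 in zygote, 1558 and 1781 in octant, 925 and 882 in globular, 1416 and 1270.1 in heart, 8042 and 8724 in torpedo, 791 and 280.1 in bent and 73.5 and 199 in mature libraries. FER1 lay between 599 and 1781 from zygote to heart and was lower in both bent than in both heart libraries. ACR11 (AT1G16880), an ACT domain protein of plastids, had 36.8 and 69.3 in zygote, 72.0 and 42.8 in octant, 6.58 and 12.7 in globular, 151 and 139 in heart, 1214 and 1678 in torpedo, 155 and 139 in bent and 0 and 24.5 in mature libraries. MSRB9 (AT4G21850), which repairs oxidised methionine, had 0 in both globular libraries, 127 and 103 in heart libraries and 843 and 779 in torpedo libraries. FSD2 (AT5G51100), an iron superoxide dismutase of plastids, had 771 and 1078 and ty2 (AT1G43560), a plastid thioredoxin, 633 and 483 at torpedo. ty2 had more RNA in mature libraries, 104.8 and 81.2, than in bent libraries, 56.2 and 29.8, and this difference did not pass the test (log2 difference 1.09, SE 0.48, limma adjusted p = 0.0628), though it passed with edgeR and DESeq2 (1.92 and 1.95) and without bent replicate 1 (1.51). AT2G37660, an NAD(P)-binding Rossmann-fold protein, had 216 and 385 in zygote, 1139 and 1412 in octant, 2017 and 1723 in globular, 3426 and 2928 in heart, 11479.6 and 15583 in torpedo, 4863 and 1982 in bent and 3.13 and 144 in mature libraries.

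Among members of mitosis and cytoskeleton, AUR1 (AT4G32830) is an Aurora kinase of the spindle, 3xHMG-box2 (AT4G23800) binds mitotic chromosomes and NP3 (AT3G06030) is a kinase of the cytokinesis pathway. AUR1 had 11.6 and 19.2 in zygote, 62.7 and 63.1 in octant, 296 and 122 in globular, 226 and 242 in heart, 1246 and 1154 in torpedo, 143 and 28.2 in bent and 1.56 and 10.8 in mature libraries. 3xHMG-box2 had 52.4 and 56.03 in zygote, 493 and 1079 in octant, 1602 and 652 in globular, 679 and 1657 in heart, 5737 and 7459 in torpedo, 1035 and 273 in bent and 0 and 64.6 in mature libraries. LNG1 (AT5G15580), which promotes lengthwise cell growth of leaves, had 1220.1 and 1171 at torpedo and 179.7 and 321 at heart. For 6 of the 7 members of this role heart was the next highest stage, and for 1 bent was.

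In the role of cell wall, surface and secretion, AT5G12460, a fringe-like protein, ranked highest. AT5G12460 had 0 and 1.47 in zygote, 3.10 and 2.25 in octant, 3.29 and 8.91 in globular, 33.2 and 3.003 in heart, 259 and 180.5 in torpedo, 3.37 and 0 in bent and 0 and 4.89 in mature libraries. AT1G28700, a nucleotide-diphospho-sugar transferase family protein, had 0 and 1.47 in zygote, 0 and 0 in octant, 3.29 and 1.27 in globular, 45.3 and 62.1 in heart, 512 and 253 in torpedo, 2.25 and 1.66 in bent and 0 and 1.96 in mature libraries. Both were at or near 0 in most libraries other than those of heart and torpedo, and heart replicate 1 of AT5G12460 was well above replicate 2. AT1G78820, a lectin with mannose-binding domains, had 384 and 292, AT5G48490, of the lipid-transfer protein fold, 1082 and 606, and AT5G25330, a glycosyltransferase family protein, 276 and 275 at torpedo. PME5 (AT5G47500), a pectin methylesterase, had 112 and 116 in zygote, 679 and 450.4 in octant, 141 and 230.3 in globular, 1911 and 1343 in heart, 7662 and 7168 in torpedo, 2249.6 and 409 in bent and 0 and 85.1 in mature libraries. The GDSL lipases AT5G22810 and AT1G71250 had torpedo means of 11243 and 408, and ATBFRUCT1 (AT3G13790), a cell wall invertase that splits sucrose, one of 1081. ZF14 (AT1G58340), a MATE family transporter, had 35.9 and 38.3 in zygote, 0 and 0 in octant, 0 and 0 in globular, 0 and 2.002 in heart, 574 and 419 in torpedo, 8.99 and 18.2 in bent and 4.69 and 14.7 in mature libraries. It was at 0 reads or at 2 reads in octant, globular and heart libraries, and its next highest stage was the zygote, 13.4 times below torpedo. SWEET11 (AT3G48740), a sucrose exporter, had 9.70 and 2.95 in zygote, 10.8 and 13.5 in octant, 0 and 0 in globular, 0 and 0 in heart, 512 and 408 in torpedo, 131 and 28.2 in bent and 0 and 7.83 in mature libraries. The putative kinases AT1G66940 and AT5G55830 had torpedo means of 369 and 247, and AT5G17630, a plastid sugar phosphate transporter, one of 4679.

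The gene that ranked first, AT3G29300, encodes an uncharacterised protein and lies on the plus strand of chromosome 3 at 11246750 to 11247873 in TAIR10.1. AT3G29300 had 0 and 0 in zygote, 14.7 and 15.8 in octant, 39.5 and 34.4 in globular, 24.2 and 56.05 in heart, 817 and 2357 in torpedo, 84.3 and 66.3 in bent and 0 and 25.4 in mature libraries. Its torpedo replicates differed widely, yet the lower of them was still far above the highest other library, and the torpedo mean was 21.1 times the bent mean. Of the other uncharacterised members among the first 20, AT3G57500 had 269 and 199, AT3G07250, an RNA-binding protein with a nuclear transport factor domain, 1020.05 and 1023, and AT3G05980 859 and 1329.7 at torpedo.

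**Figure D3:**
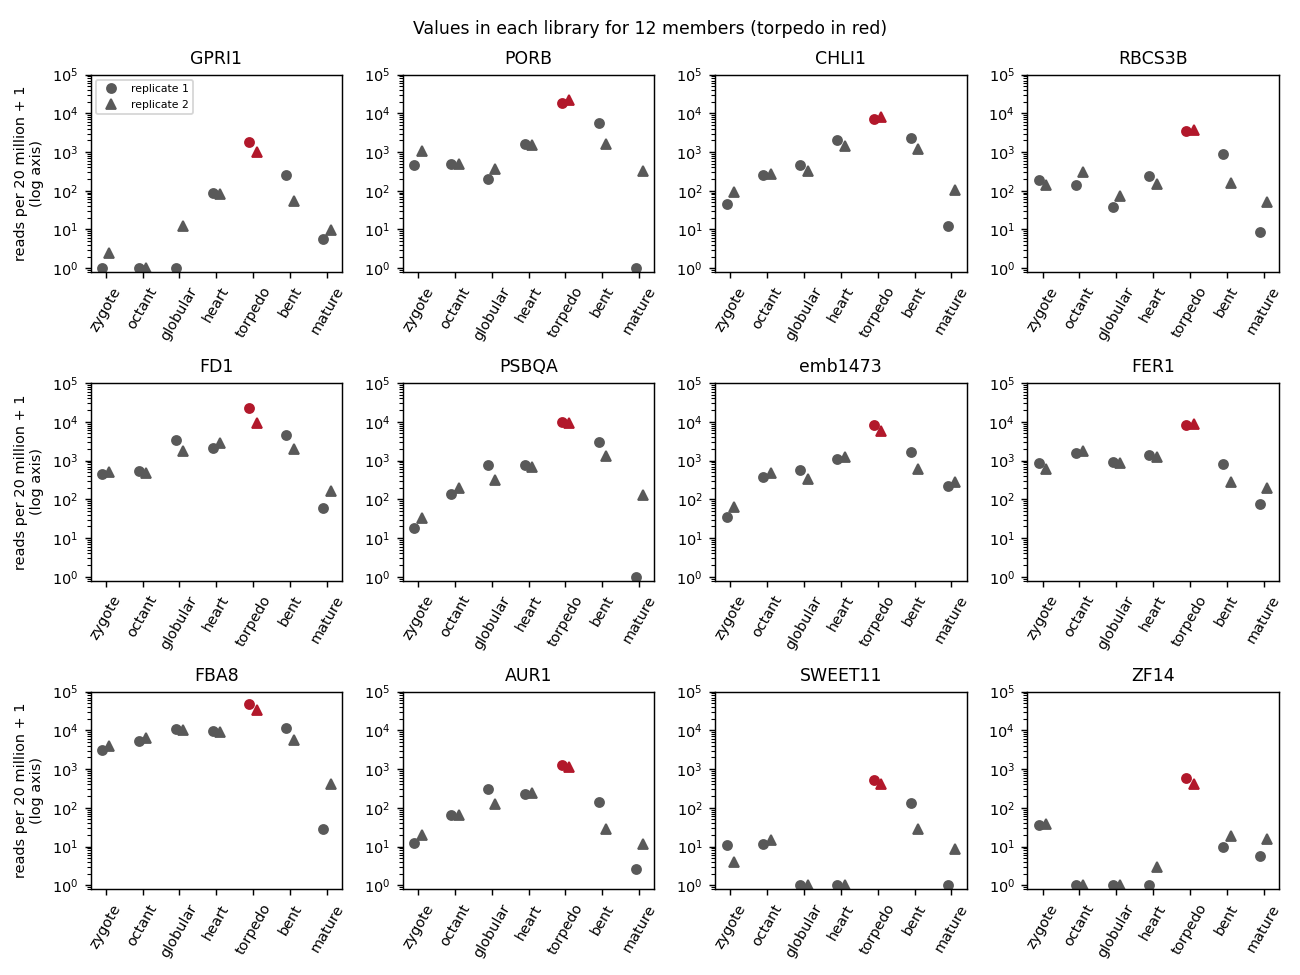
The vertical axis, on a log scale, is the normalised read count (of 20000000) plus 1, and the horizontal axis the stage. Circles are replicate 1, triangles replicate 2, and torpedo is in red. Both red points lie above all others in each of the 12 panels, and mature replicate 1 lies below replicate 2 in each panel.

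Bent and heart embryos, the stages on either side of torpedo, were compared to see whether the members' RNA was lower or higher after the peak than before it. The torpedo libraries do not enter the difference of these stages, but they do enter the estimate of its error, and the rule set a ceiling on both stages. Of the 100 members 5 rose and 6 fell (limma, adjusted p under 0.05), against 14.9% of all tested genes that rose and 27.2% that fell, so fewer members than background genes passed in either direction. The median log2 difference of the members was -0.09, against -0.37 for all 18744 tested genes, and with median-centred values 0.11 against -0.17.

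SWEET11 had 131 and 28.2 in bent and 0 in both heart libraries, and it rose at least 15.6-fold by its lower bent library and 44.2-fold by its bent mean, taking 3 reads over both heart libraries as the floor (limma adjusted p = 0.000172). AT1G66940 rose to 56.2 and 72.9 in bent, against 9.06 and 1.00 in heart libraries (log2 difference 3.07, SE 0.55, limma adjusted p = 0.000449). ZF14 rose, on few reads, 19 in bent against 2 in heart libraries, a ratio of the pooled reads of 10.6 with an exact 95% counting interval of 2.55 to 93.6 (limma adjusted p = 0.00716). Of the 5 members of transporters and kinases, these 3 rose and none fell, and the bent libraries lay above the heart libraries in all 3. AIL7 rose to 185 and 144 in bent, against 52.8 and 39.0 in heart libraries (log2 difference 1.76, SE 0.43, limma adjusted p = 0.00428), and AT2G34620 of the mTERF family to 236 and 91.1, against 25.7 and 31.0 (log2 difference 2.23, SE 0.68, limma adjusted p = 0.0156). Seed coat markers summed to 33736 and 23468 in bent and 12714 and 8483 in heart libraries, with BAN at 4.49 and 0 in bent and 172 and 252 in heart, and scpl17, the highest of the list in bent, at 23959 and 16055 in bent and 48.3 and 31.0 in heart. Their part in these rises was not tested. Without bent replicate 1 the log2 difference of SWEET11 was 3.01 and without bent replicate 2 5.08, while for AT1G66940 it was 3.77 without heart replicate 1 and 2.38 without heart replicate 2. For AT2G34620 it was 1.56 without bent replicate 1 and 2.90 without bent replicate 2, and the call was lost without bent replicate 1 or either heart replicate (2.11 and 2.35). The call of ZF14 was lost without heart replicate 1 (1.501) and without bent replicate 2 (1.41). Fitted on the compared stages alone, the calls of AIL7, ZF14 and AT2G34620 were lost with unchanged differences, and that of AT2G34620 also with a pseudocount of 1 (2.34) or no filter (2.23).

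AT1G28700 fell to 2.25 and 1.66 in bent, against 45.3 and 62.1 in heart libraries, that is 3 reads against 92, a ratio of the pooled reads, heart over bent, of 27.6 with an exact 95% counting interval of 9.14 to 136 (limma adjusted p = 5.23e-05). AT1G44830 fell to 13.5 and 9.94 in bent, against 40.8 and 74.1 in heart libraries (log2 difference -1.92, SE 0.50, limma adjusted p = 0.00616). AUR1 fell to 143 and 28.2 in bent, against 226 and 242 in heart libraries (log2 difference -1.79, SE 0.66, limma adjusted p = 0.04), and FER1 to 791 and 280.1, against 1416 and 1270.1 (log2 difference -1.501, SE 0.49, limma adjusted p = 0.0217). AT5G25330 (-1.52, limma adjusted p = 0.0344) and AT4G26370, an antitermination domain protein of organelle transcription (-1.30, adjusted p = 0.0249), fell as well. The fallers thus came from several roles, and none of the 17 photosynthetic and chlorophyll members passed in either direction. The rule kept out genes with high bent or heart levels, so this does not speak for their pathways. Among genes that are not members, 17 of 48 photosynthesis genes rose and 3 fell. Of 21 chlorophyll synthesis genes 2 rose and 6 fell. The falls of AUR1, FER1 and AT5G25330 were lost with edgeR and with DESeq2, and without bent replicate 2, where their log2 differences were -0.70, -0.76 and -1.35, and those of AUR1 and FER1 were -2.89 and -2.24 without bent replicate 1. They were also lost without either heart replicate, at -1.84 and -1.75 for AUR1, -1.42 and -1.58 for FER1 and -1.21 and -1.83 for AT5G25330. AUR1 was lost as well without either zygote, octant or torpedo replicate (-1.79 in each) and AT5G25330 without bent replicate 1 (-1.68), AT4G26370 without any of the bent or heart replicates (-1.17 to -1.42) and with edgeR or DESeq2 (-0.96 and -0.89), and AT1G44830 was lost without heart replicate 2 (-1.52) and with a pseudocount of 1 (-2.15). On the compared stages alone the calls of AT1G44830, AUR1, FER1 and AT5G25330 were lost. Of the members 4 rose and 12 fell without bent replicate 1, 12 rose and 2 fell without bent replicate 2, and 3 rose and 2 fell without heart replicate 1. Without heart replicate 2, 4 rose and 2 fell.

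**Figure D4:**
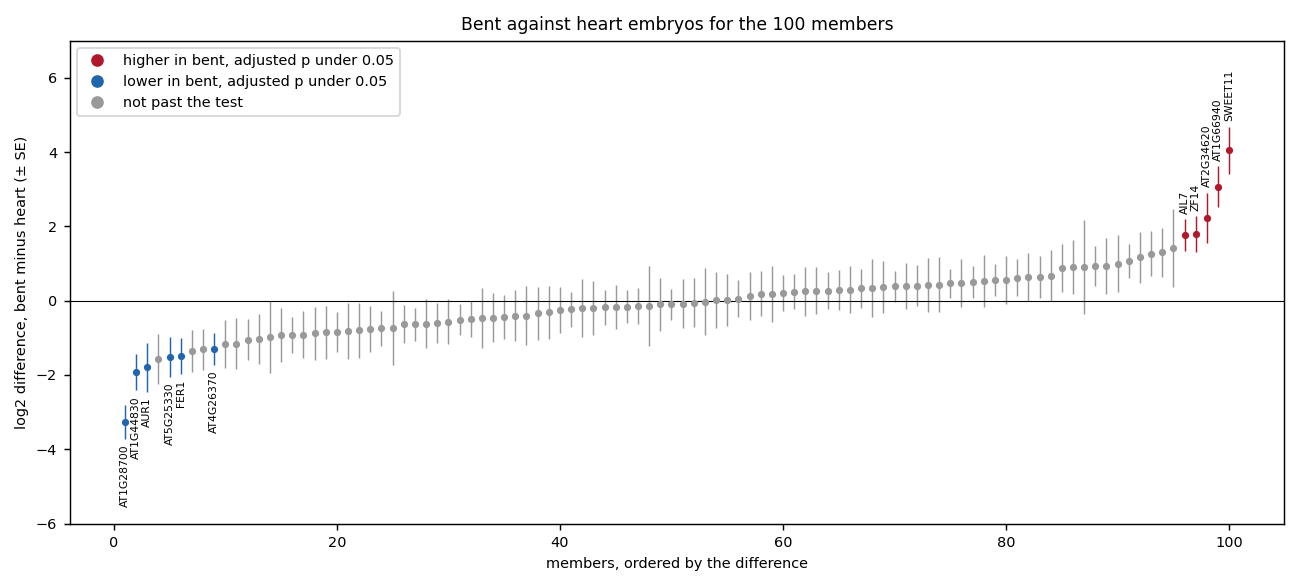
Each point is 1 member, ordered along the horizontal axis by its log2 difference, bent minus heart, on the vertical axis with its SE. Red points are higher and blue points lower in bent with an adjusted p under 0.05. The 5 rises are the 5 highest differences, the 6 falls lie among the lowest with AT5G12460, CRR7 and AT1G75090 between them, and 89 members did not pass.

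The contrast of heart with globular embryos asks which members had already changed before torpedo. Of the 100 members 34 rose and 0 fell (limma, adjusted p under 0.05), against 27.7% of all tested genes that rose and 6.9% that fell. The rule set a ceiling on both stages and kept out genes with their maximum at the globular stage. Falls of members were therefore limited by the rule, which did not limit the other tested genes. The median log2 difference was 0.96 for the members and 0.59 for all tested genes. After centring each library on its median gene, which moved the median of all tested genes to -0.24, 16 members rose and 2 fell, against 9.83% and 17.2% of all genes. MSRB9 had 127 and 103 in heart and 0 in both globular libraries, at least 37.4-fold higher by its lower heart library, with 3 reads over both globular libraries as the floor (limma adjusted p = 7.71e-05). CSY1, a peroxisomal citrate synthase, and AT4G04460, an aspartyl protease, had 80.0 and 35.03 for CSY1 and 58.9 and 43.0 for AT4G04460 in heart and 0 in the globular libraries, and were, by the same measure, at least 12.7-fold and 15.6-fold higher in heart libraries (limma adjusted p = 0.000631 and 0.000733). ATBFRUCT1 rose to 207 and 136 in heart, against 0 and 10.2 in globular libraries (log2 difference 4.51, SE 0.79, limma adjusted p = 0.000797). ACR11 rose to 151 and 139 in heart, against 6.58 and 12.7 in globular libraries (log2 difference 3.48, SE 0.69, limma adjusted p = 0.0018). GPRI1 rose to 84.5 and 80.1 in heart, against 0 and 11.5 in globular libraries (log2 difference 3.46, SE 0.70, limma adjusted p = 0.00201), with no overlap between the stages. Of the photosynthetic members 3 of 14 rose, namely CPSRP54, CRR7 and HCF106, and of the chlorophyll members CHLI1 (log2 difference 2.11, SE 0.66, limma adjusted p = 0.0234). The call of CHLI1 was lost with edgeR and DESeq2 (1.52 and 1.41) and without any of the heart or globular replicates (1.85 to 2.37). PORB (2.51, adjusted p = 0.142) and RBCS3B (1.78, adjusted p = 0.0854) did not pass, though PORB passed without either mature replicate (2.51) and RBCS3B without either bent replicate (1.78). In the other roles 5 of 10 regulators, 8 of 16 metabolic genes, 7 of 15 cell wall and surface genes, 6 of 21 organelle expression genes and 3 of 7 mitosis genes rose. With median-centred values these counts were 3, 4, 5, 0 and 1, with 1 organelle expression gene that fell, and 2 photosynthetic and 0 chlorophyll members rose and 1 photosynthetic member fell. ATBFRUCT1 had a log2 difference of 3.60 without globular replicate 1 and 5.43 without globular replicate 2, GPRI1 had 2.48 and 4.43 without these, and the count of members that rose was 19 without globular replicate 2, 21 without heart replicate 1 and 20 without heart replicate 2. By edgeR 21 members rose and 1 fell, by DESeq2 18 and 1, and on the compared stages alone 10 rose and the calls of GPRI1, ATBFRUCT1 and CHLI1 were lost.

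Mature and bent embryos were compared to see what became of the members after torpedo. Of the 100 members 83 fell and 0 rose (limma, adjusted p under 0.05), against 40.1% of all tested genes that fell and 18.2% that rose. The rule set a ceiling on both stages and kept out genes with their maximum at the mature stage. Rises of members were therefore limited by the rule, which did not limit the other tested genes. The median log2 difference was -2.91 for the members and -0.57 for all tested genes, and with median-centred values, where all tested genes had a median of 0.81, 54 fell and 6 rose, against 21.9% and 43.7% of all genes. By edgeR 72 members fell and 1 rose, by DESeq2 73 and 1. AT2G37660 fell to 3.13 and 144 in mature, against 4863 and 1982 in bent libraries (log2 difference -6.58, SE 0.91, limma adjusted p = 1.91e-05). PSBQA fell to 0 and 131 in mature, against 2941 and 1298 in bent libraries (log2 difference -6.40, SE 1.05, limma adjusted p = 9.27e-05), and PORB to 0 and 316, against 5518 and 1596 (log2 difference -6.38, SE 1.27, limma adjusted p = 0.000523). FBA8 fell to 28.2 and 406 in mature, against 11684 and 5542 in bent libraries (log2 difference -6.13, SE 0.78, limma adjusted p = 9.02e-06), and PME5 to 0 and 85.1, against 2249.6 and 409 (log2 difference -5.68, SE 1.00, limma adjusted p = 0.000187). In each of these 5 the mature libraries lay below the bent libraries, and mature replicate 1 was the lower of its pair, as it was in 87 of the 100 members and in 54.8% of all tested genes. Without mature replicate 1 the log2 differences were -4.39 for AT2G37660, -3.86 for PSBQA, -3.22 for PORB, -4.30 for FBA8 and -3.44 for PME5, and without mature replicate 2 they were -8.77, -8.93, -9.54, -7.97 and -7.91. On the compared stages alone 31 members fell, and of these 5 the calls of AT2G37660, PSBQA, PORB and PME5 were lost. All 3 chlorophyll members, all 7 mitosis members and 12 of 14 photosynthetic members fell, as did 15 of 21 of organelle gene expression. With median-centred values 3, 6 and 7 of these fell, and of organelle gene expression 6 fell and 2 rose. The 17 members that did not pass included the ribosomal proteins RPL24 (-0.37, adjusted p = 0.487) and AT3G54210 (-0.28, adjusted p = 0.642), MORF9 (-0.49, adjusted p = 0.352) and HB25 (-0.60, adjusted p = 0.555). After median centring these 4 differences were 1.01, 1.10, 0.89 and 0.78, so their direction depends on the scaling.

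The members were set beside lists of related genes, to see how many genes of the same pathways reached their maximum at torpedo without entering the 100. Both torpedo libraries lay above all 12 others for 14.1% of tested genes, members included, but, members left out, for 31 of 48 (64.6%) photosynthesis genes, 12 of 21 (57.1%) chlorophyll synthesis genes and 16 of 25 (64%) plastid fatty acid synthesis genes. The photosynthesis list holds light-harvesting and photosystem subunits, electron carriers, Rubisco small subunits and Calvin cycle enzymes. Of these lists, 3, 2 and 0 tested genes were members. The lists were matched by gene symbol or synonym and do not hold every gene of a pathway. The members PSBQA, AT1G49975 and FLU are not on them. In the other 16 lists the share was 0 to 21.4%, with cutin and wax genes at 3 of 62, myrosinases and specifiers at 1 of 36 and expansins and xyloglucan enzymes at 3 of 47.

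**Figure D5:**
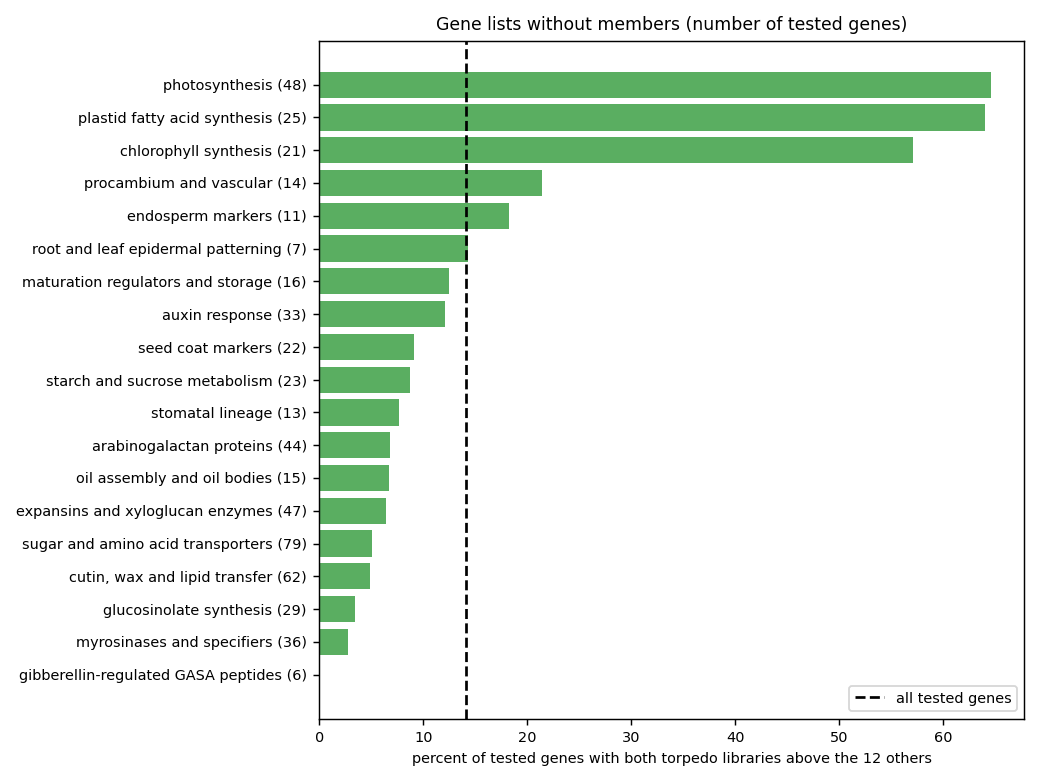
Bars show, for each of 19 gene lists without members, with its number of tested genes, the percent of genes for which both torpedo libraries lay above the 12 others, and the dashed line marks the 14.1% of all tested genes, members included. The 3 plastid lists reach 57.1% to 64.6% and the others 0 to 21.4%.

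For the genes of these 3 lists that are not members, torpedo and heart embryos were compared, a contrast added after the data were seen. The share above already required torpedo to lie above both heart libraries, so these counts are not separate support for a torpedo peak. Of 48 photosynthesis genes 30 rose and 0 fell, of 21 chlorophyll genes 5 rose and 1 fell, and of 25 fatty acid genes 11 rose and 0 fell, against 16.3% of all tested genes that rose and 9.17% that fell (limma, adjusted p under 0.05). Such rises were not particular to these lists. Of 15 oil assembly and oil body genes 9 rose and 2 fell, and of 16 maturation and storage genes 9 rose and 1 fell. Of 62 cutin and wax genes 7 rose and 19 fell. With median-centred values 26 photosynthesis, 2 chlorophyll and 9 fatty acid genes rose and 0, 1 and 1 fell, against 10.5% and 16.7% of all genes. As an example the gene with the highest torpedo mean in each of the 3 plastid lists was taken, without regard to its test. RBCS1A (AT1G67090), the main Rubisco small subunit, had 249311 and 164556 in torpedo and 26079.8 and 22529 in heart libraries (log2 difference 3.06, SE 1.00, limma adjusted p = 0.0364). RBCS1A had 124418 and 120322 in bent libraries, where the member RBCS3B had 912 and 156. The other small subunit genes on the list, RBCS2B and RBCS1B, had octant means of 281 and 383 and torpedo means of 61.9 and 143. How reads were divided among these similar genes was not tested. CRD1 (AT3G56940), a cyclase of chlorophyll synthesis, had 21513 and 26969 in torpedo and 3566 and 3903 in heart libraries (log2 difference 2.69, SE 0.81, limma adjusted p = 0.0247). KASI (AT5G46290), a ketoacyl synthase that extends fatty acids in plastids, had 70344 and 81171 in torpedo and 12302 and 10762 in heart libraries (log2 difference 2.71, SE 1.20, limma adjusted p = 0.112) and did not pass, though it passed with quantile normalization (3.44) and without either mature replicate (2.71). The call of RBCS1A was lost without any of the zygote, octant, heart or torpedo replicates (2.76 to 3.36) and median-centred (2.62), and that of CRD1 without any of the heart or torpedo replicates (2.53 to 2.85). Without torpedo replicate 1, torpedo replicate 2, heart replicate 1 or heart replicate 2, the photosynthesis genes that rose numbered 12, 16, 16 and 17, the chlorophyll genes 2, 1, 1 and 1, and the fatty acid genes 5, 6, 6 and 6, and without either mature replicate the chlorophyll genes numbered 8 and the fatty acid genes 19.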

How the data were processed

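Whole embryos of 7 stages were profiled by RNA-seq, with RNA amplified as antisense RNA before library preparation with a kit that does not mark strand, per the labels' protocols. Per the submitters' processing notes, the build was TAIR10 and the tools were STAR, HTSeq, DESeq2, CASAVA, FastQC and Trimmomatic, without versions. The authors deposited a normalised signal per gene, and each library's column sums to 20000000 over 25517 entries. Of these entries 103 carry no gene identifier and were left out of the tests. They held from 9.15% (mature replicate 1) to 26.3% (bent replicate 2) of a library's total. All values were whole multiples of 1 read within 0.001, so reads were recovered. How the values were scaled is not stated in the labels used here. Replicates are called biological in the labels.

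Genes at 10 or more in 2 libraries were tested (18744) on log2(value + 4) with limma 3.58.1 in R 4.3.3, stage only, over all 14 libraries, with p-values adjusted after Benjamini and Hochberg over all tested genes. A fold on this scale understates changes of low genes. All 100 members passed the filter. The fit was also run on simulated counts with the same spread setting for all genes, which is simpler than these data, and no result here rests on it. Members and lists were chosen with earlier results of these data known, and 18 symbols were dropped from the lists because the annotation gives them to genes of another function. Named are the first 20 members, those with the 10 highest torpedo means, list members, the 5 largest changes per comparison, the last 5 members and the 5 genes after them, and families, together with members chosen afterwards to illustrate a role. Counting intervals (95%) and floors (3 reads) cover counting error only. edgeR 4.0.16 and DESeq2 1.42.0 were run on the recovered reads as alternatives, beside other pseudocounts (1 and 16), filters (none and 50), scalings, weights, a replicate block and leaving out each library. A replicate left alone in its stage was assumed to vary like the others.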

Additional observations from a re-analysis of the deposited data

How the results depend on the processing

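None of the named calls turned its direction under the alternatives run, and 15 of them were lost on the compared stages alone. Bent against heart, 1690 genes rose and 2963 fell with the compared stages fitted alone (3 and 2 members), which leaves 2 residual degrees of freedom. Members that rose numbered 10 with quantile normalization, 10 with edgeR and 12 with DESeq2, and members that fell numbered 3 with a pseudocount of 1, 3 with no filter, 2 with upper-quartile scaling, 2 with edgeR and 2 with DESeq2. Heart against globular, genes that rose and fell numbered 2525 and 2300 by upper quartiles, 2270 and 2189 by quantiles, 1842 and 3227 median-centred, 668 and 229 with the stages alone, 2144 and 2190 with edgeR and 2065 and 2786 with DESeq2, and the members 17 and 1, 17 and 1, 16 and 2, 10 and 0, 21 and 1, and 18 and 1, with 21 rises under no filter. Mature against bent, 5184 genes rose with quantile normalization, and 8199 rose and 4111 fell median-centred. Of the members 1 rose with a pseudocount of 16, upper-quartile scaling, edgeR or DESeq2, 3 with quantile normalization and 6 median-centred, and 54 fell median-centred and 31 with the stages alone. Torpedo against heart, 1965 genes rose and 3132 fell median-centred and 1065 fell with the stages alone. Photosynthesis genes that rose numbered 14 with no filter, chlorophyll genes 2 with no filter, 2 median-centred, 8 with the stages alone and 3 with edgeR, and fatty acid genes 7 with no filter and 17 with quantile normalization, array weights or the stages alone. The cause of these moves was not tested. Mature against bent, the uncalled log2 differences of RPL24, AT3G54210, MORF9 and HB25 were positive median-centred (1.01, 1.10, 0.89 and 0.78), with edgeR (0.32, 0.48, 0.31 and 0.17) and with DESeq2 (0.35, 0.52, 0.35 and 0.19), those of RPL24 and AT3G54210 by upper quartiles (0.11 and 0.19), those of RPL24, AT3G54210 and MORF9 without bent replicate 1 (0.40, 0.36 and 0.043), and that of AT3G54210 without mature replicate 2 (0.11), while without bent replicate 2 they were -1.14, -0.93 and -1.03.

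Leaving out 1 library at a time gave the following ranges. Bent against heart, 2093 to 2918 genes rose, 3526 to 5319 fell, 3 to 12 members rose and 2 to 12 fell. Heart against globular, 3094 to 5455 genes rose, 792 to 1365 fell and 19 to 40 members rose. Mature against bent, 0 to 1 members rose. Torpedo against heart, 1555 to 3256 genes rose, 873 to 1889 fell, and of the photosynthesis, chlorophyll and fatty acid genes 12 to 40, 1 to 8 and 5 to 19 rose. Members kept among the first 100 numbered 61 to 100. The choice of members also moved with all libraries kept. With quantile normalization 69 members stayed among the first 100, with upper-quartile scaling 78 and with equal totals over named genes 94. With the lowest torpedo mean allowed set to 400, 76 stayed, and with it set to 100, 84 stayed. With 1 or 16 added to the highest other stage mean in the ratio, 99 and 95 stayed.

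Replicate numbers were not used to pair the samples. The deviations of same-numbered libraries correlated over 0.1 in 3 of 21 pairs of stages (-0.111 to 0.299). A batch shared by some stages only was not tested. With the replicate number as a block, 5 members rose and 6 fell in bent against heart, and all named changes kept their call.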

Other observations

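The members lay on all 5 chromosomes, with 24, 10, 23, 16 and 27 on chromosomes 1 to 5. Only 1 pair lay within 10 annotated genes of each other, AT3G05980 and NP3 on chromosome 3, with 5 genes between them. Members had a median transcript length of 1389 bases, against 1522 bases for all matched genes. Of the 100 members 12 passed in none of the 3 planned comparisons, and 30 both rose in heart against globular and fell in mature against bent. The matching shares of all tested genes were not counted, so these counts do not show whether members differ from other genes. Taken singly, 27.7% of all tested genes rose in the former comparison and 40.1% fell in the latter. The genes at ranks 96 to 99 were AT1G27210, AT5G58620, GT18 and ATBFRUCT1, with torpedo means of 327, 487, 275 and 1081.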
